A study of Mus musculus with 37 samples.

Results

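The 733 CTCF loops described here are those whose anchors both lay in the 20.1 Mb of mouse chromosome 4 around the Kdm1a gene (from 126.5 to 146.6 Mb, build mm10), out of 27786 loops of the library. The interval reaches about 10 Mb to each side of Kdm1a, and membership followed position, so neither the number of tags nor any expression value picked single loops. The interval itself was chosen with earlier results of these data known. The 628 genes whose bodies lay wholly inside it were examined in RNA-seq of the hippocampus, out of 48795 genes counted.

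The loops came from 1 library of CTCF ChIA-PET, made from sorted nuclei of hippocampal excitatory neurons. These nuclei came from 12-week-old male mice that carried Camk2a-creERT2, a tamoxifen-inducible recombinase driven by a promoter of forebrain principal neurons, and the CAG-Sun1/sfGFP nuclear tag, and that had wild-type Kdm1a and were treated with tamoxifen. RNA was sequenced from the whole hippocampus of 3 male Kdm1a-ifKO mice (Camk2a-creERT2 crossed with Kdm1a f/f) and of 3 male controls, with 1 library per mouse. Mice of both RNA groups received tamoxifen, given 5 times from 8 weeks of age, and were kept on a C57BL/6J background. Recombination in the Kdm1a-ifKOs removes exons 5 and 6, which leaves a premature stop codon. The controls, labelled WT, were littermates without the recombinase. The sources used here do not say whether they carried the floxed allele, nor the age at which RNA was taken. ChIA-PET of Kdm1a-ifKO neurons was not analysed here, so loops and changes of expression come from different mice.

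CTCF is a zinc finger protein that binds a directional DNA motif and stops the cohesin ring as it extrudes chromatin into a loop. Loops therefore tend to form between CTCF sites whose motifs point toward each other, and such loops limit which enhancers and promoters meet. ChIA-PET pulls down the protein, ligates the DNA ends held together by it and sequences the junctions as paired-end tags (PETs), so the PET count of a loop is the number of such junctions between its anchors. Kdm1a is a histone demethylase that removes methyl groups from lysine 4 of histone H3 and acts as a transcriptional corepressor. A gene-targeted allele carries chromosomal DNA of its embryonic stem cells with it, and genes near it can differ between genotypes for that reason. The change of the genes around Kdm1a is described with this question in view, but it cannot settle it. A difference carried with the floxed allele would be shared by controls that had the same allele. If the controls lacked that allele, such a difference could not be told apart from an effect of Kdm1a loss.

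Kdm1a (ENSMUSG00000036940) lay on the minus strand of chromosome 4, from 136550540 to 136602723, and 6 loops contained its whole body between their outer anchor edges. The strongest of them had 74 PETs and ranked 14 among the 733 loops. It joined an intergenic site to chr4:136618068-136623835, a site at the promoter of Lactbl1, over a span of 167 kb between anchor midpoints. It enclosed 6030445D17Rik, Luzp1, Kdm1a and Tex46. A loop of 14 PETs with a left anchor in the body of Luzp1 had a span of 95.7 kb and enclosed Kdm1a and Tex46. A loop of 11 PETs reached over 362 kb to the body of Tcea3 and added Zfp46, Hnrnpr and Htr1d. The other loops over Kdm1a had 3, 3 and 4 PETs, and the widest of them spanned 1144 kb.

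The CTCF motifs at the anchors of the loops of 14 and 11 PETs over Kdm1a are shown because they give the direction of each anchor. The sequences are those of the GRCm38 reference, 30 bases each, read 5′ to 3′ on the strand of the motif, with the match to the CTCF core consensus in capitals. Where an anchor held several matches, the match with the fewest mismatches is given, and among ties the one nearest the middle of the anchor.
Shared right anchor of these loops and of the loop of 74 PETs, chr4:136621495-136621524, minus strand, exact match: agcaaatcaCCACTAGATGGCagaaggtgt
Left anchor of the loop of 14 PETs, chr4:136526633-136526662, plus strand, 1 mismatch: gtagtgcagCCACCAGATGGAgcccgtgca
Left anchor of the loop of 11 PETs, chr4:136259953-136259982, plus strand, 1 mismatch: caatgtgtcCCACCAGGGTGCagcctccag
Both pairs of matches shown were convergent, with a plus-strand match at the left anchor and a minus-strand match at the right. At the left anchor of the loop of 11 PETs 2 matches tied at 1 mismatch, so its strand may rest on the choice between them.

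The right anchor site lay beyond the start of Kdm1a and was an end of loops on that side. The anchor of the loop of 74 PETs began 15.3 kb from the Kdm1a start, and its left anchor ended 93.4 kb from the other end of the gene. Of the 6 loops over Kdm1a, 5 ended at the merged right site (chr4:136618068-136624238), which was the left anchor of 0 loops. The position just after this site was crossed by 1 loop, of 3 PETs, whereas the Kdm1a start site was crossed by 6 loops with 109 PETs. The next anchor site began 23.6 kb further on, in the body of Ephb2. Over 2011 positions spaced by 10 kb across the interval, the median was 5 loops (quartiles 1 and 8, highest 22) and 33 PETs, and 14.9% of the positions lay under no loop. Kdm1a therefore lay under about as many loops as a typical position of the interval, and its neighbour site under fewer.

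**Figure D1:**
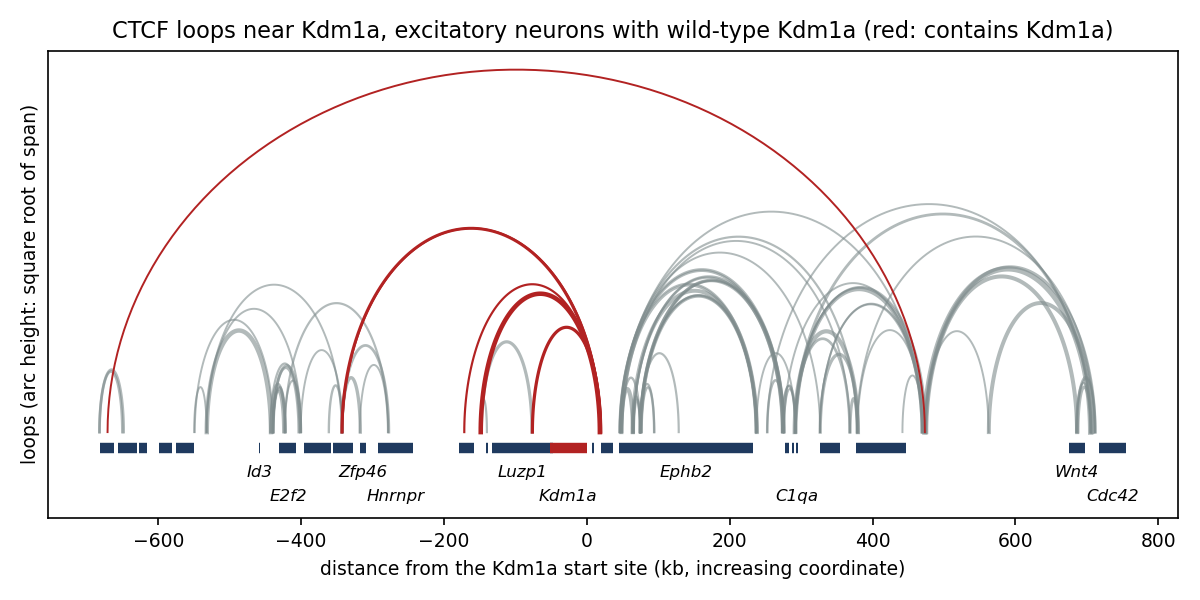
CTCF loops within about 700 kb of the Kdm1a start site in excitatory neurons with wild-type Kdm1a. Each arc joins the midpoints of 2 anchors, its height follows the square root of the span, thicker arcs have more PETs, bars are protein-coding genes, and red marks Kdm1a and the 6 loops that contain it, of which 5 end at the same site to the right of the gene.

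The interval was dense in loops. It held 36.5 loops per Mb, against 8.96 on the rest of chromosome 4 and 11.0 on the autosomes outside the interval, and 397 PETs per Mb against 91.5 and 122. It was also dense in genes, with 16.7 protein-coding genes per Mb against 7.27 and 8.38. Counted per coding gene, it had 2.19 loops, against 1.23 on the rest of chromosome 4 and 1.32 on the other autosomes. These are counts of a single library, and no replicate gives their error.

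The loops were shorter than those of the other autosomes, with fewer long ones, and their median PET count was similar. The median span was 97.3 kb (95% order-statistic interval of the median 88.0 to 106, 733 loops), against 99.8 kb (91.2 to 111) on the rest of chromosome 4 and 116 kb (114 to 118) on the other autosomes. Spans ran from 7.99 kb to 2616 kb, with quartiles of 36.9 and 188 kb. Loops of 500 kb to 2 Mb made up 4.77% of the interval (35 loops), 10.4% of the rest of chromosome 4 and 9.40% of the other autosomes. The median PET count was 5 (95% order-statistic interval 4 to 5), against 4 and 5. Loops with the lowest count that was kept, 3 PETs, numbered 239 (32.6%), loops of at least 10 PETs 166 (22.6%) and loops of at least 50 PETs 25 (3.41%). The 73 loops with the most PETs held 52.5% of the PETs. Intervals of medians here describe the loops of this library alone and cover no variation between animals.

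**Figure D2:**
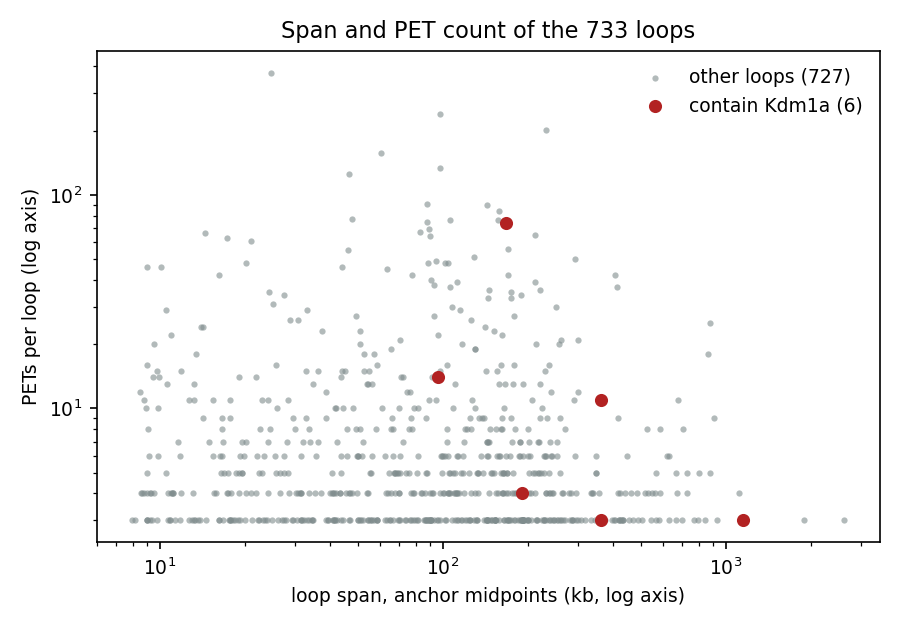
Span (kb, log axis) and PET count (log axis) of each of the 733 loops of the interval, from the 1 ChIA-PET library. The 6 loops that contain Kdm1a, in red, lie between 95.7 and 1144 kb, and the strongest of them has 74 PETs, while the strongest loop of the interval has 372.

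The strongest loop of the interval had 372 PETs and a span of 24.7 kb. Its anchors were broad, with 5923 bases between their inner edges. A loop of 240 PETs and 98.0 kb started at the promoter of Sdc3, a neuronal heparan sulfate proteoglycan, and its anchors enclosed that gene. A loop of 202 PETs and 232 kb enclosed Wnt4, a secreted signalling ligand, and ended between Wnt4 and the small GTPase gene Cdc42. A loop of 157 PETs and 60.2 kb ended at a promoter near Fgr and Ahdc1, and a loop of 134 PETs and 97.9 kb joined the bodies of Clic4 and Srrm1. The motifs at the anchors of the loops of 157 and 202 PETs are shown beside those over Kdm1a. The matches shown were convergent for the former and not for the latter. At the right anchor of the loop of 157 PETs 4 matches tied at 1 mismatch, so its strand may rest on the choice among them.
Left anchor of the loop of 157 PETs, chr4:132945688-132945717, plus strand, exact match: cgaacatgaCCACCAGGTGGCactgtagtc
Right anchor of the loop of 157 PETs, chr4:133005446-133005475, minus strand, 1 mismatch: ctagagtgtCCACTAGGTGGAgggcaagca
Left anchor of the loop of 202 PETs, chr4:137072776-137072805, minus strand, exact match: actggcaagCCACCAGGTGGCgcccttgac
Right anchor of the loop of 202 PETs, chr4:137308614-137308643, minus strand, exact match: ggagaacatCCACTAGGTGGCagaaaaaca
At the anchors of the loop of 202 PETs the matches shown thus pointed the same way, a tandem arrangement.

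Merging overlapping anchors gave 392 anchor sites. Of these, 59 (15.1%) lay within 1 kb of the start of a protein-coding gene, 179 (45.7%) in a gene body and 154 (39.3%) between genes, close to the shares on the other autosomes (15.7%, 45.3% and 39.0%). A site took part in a median of 3 loops, 91 sites in 1 loop and 124 in at least 5. The site with the most loops, 18, lay in the body of Wdtc1. Loops between a gene body and an intergenic site were the most frequent pair (247, 33.7%), and loops between promoters the least (9, 1.23%).

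The CTCF core consensus, with at most 1 mismatch on either strand, was found at 280 of the 392 sites (71.4%). In regions of the same length shifted by 20 kb that met no anchor, it was found in 112 of 314 (35.7%). On the other autosomes the shares were 66.6% and 25.1%. For 234 loops both anchors had their best matches on a single strand. Of these, 135 (57.7%, Wilson 95% interval 51.3 to 63.8) were convergent, 77 (32.9%) were tandem and 22 (9.40%) were divergent, and 59.2% were convergent on the other autosomes. The convergent share was 39.5% (30 of 76, Wilson 95% interval 29.2 to 50.7) in loops of 3 or 4 PETs and 68.5% (61 of 89, Wilson 95% interval 58.3 to 77.2) in loops of at least 10 PETs. These intervals cover counting error only, and loops that share an anchor are not independent. With exact matches alone the shares were 75.0% (6 of 8) and 61.1% (11 of 18), so this order of the classes did not hold on so few loops.

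Unions of overlapping loops of at most 2 Mb formed 13 loop domains, which covered 85.0% of the interval. Their median size was 657 kb and the smallest had 93.4 kb. The largest, of 6423 kb (chr4:134942599-141365540), contained Kdm1a, 365 loops and 105 protein-coding genes. Weak loops held this domain together. From loops of at least 5 PETs, 43 domains formed and that of Kdm1a shrank to 384 kb (chr4:136240591-136624238) with 7 loops and 8 coding genes, and from loops of at least 10 PETs 53 domains formed and it kept 366 kb, 5 loops and 7 coding genes. Loops thinned out toward the higher coordinates. On the lower side, the window from 127500000 to 128499999 was also poor in loops, with 2 loops and 3 coding genes. The window from 137500000 to 138499999 had 75 loops and 16 coding genes, whereas the window from 143500000 to 144499999 had 1 loop and 28 coding genes. Beyond position 145297015 no loop of the interval was found. How well reads can be placed in these loop-poor stretches was not examined.

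**Figure D3:**
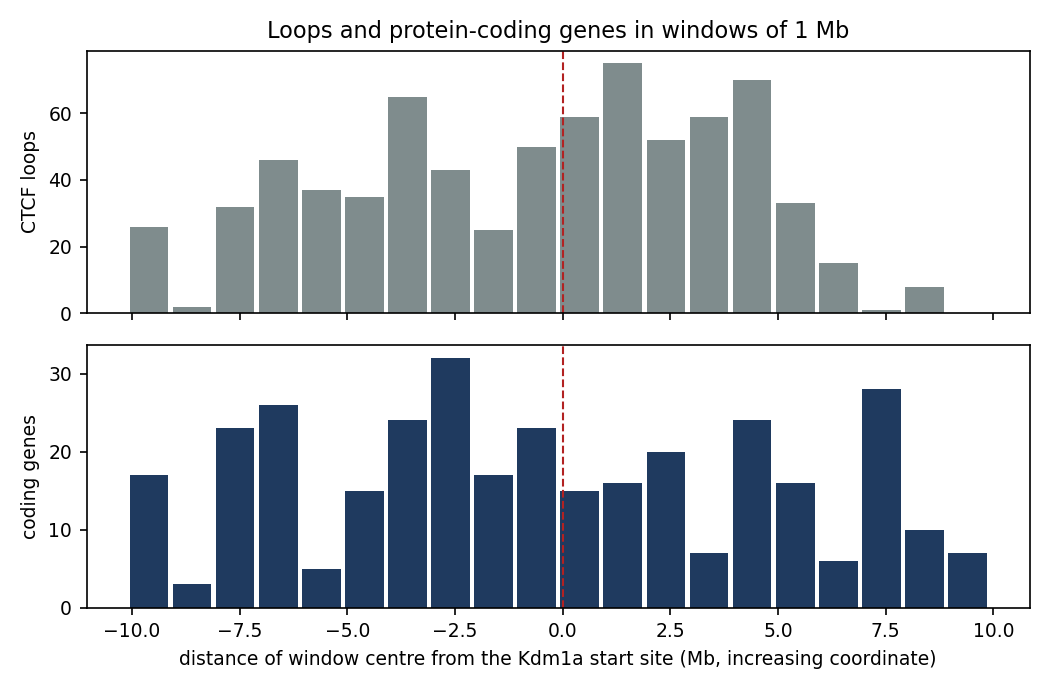
CTCF loops (upper bars) and protein-coding genes (lower bars) in windows of 1 Mb across the interval, placed by distance from the Kdm1a start site (dashed line). Loop counts reach 75 in a window, and they fall to 1 in a window with 28 coding genes and to 0 in a window with 7. How well reads can be placed in the loop-poor windows was not examined.

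The RNA libraries held between 18985542 and 19469947 read counts. Expression is given as CPM, read counts scaled to a common library size after TMM normalization, and the groups were compared by the quasi-likelihood test of edgeR, with p-values adjusted by Benjamini-Hochberg over all 16799 genes kept by its low-count filter. A gene is called when its adjusted p was under 0.05. The log2FC is Kdm1a-ifKO minus control, and SE is its standard error. Control replicate 3 and Kdm1a-ifKO replicate 2 stood apart from the other libraries on the second principal component. Markers of excitatory neurons (Camk2a, Slc17a7, Neurod2, Neurod6, Prox1 and Grin2b) summed to between 7027 and 7289 CPM in controls and between 6839 and 7579 CPM in Kdm1a-ifKOs. Camk2a and Slc17a7 weighed most in these sums (control means 4642 and 1403 CPM), with log2FC values of 0.054 and 0.093. Those of Neurod2, Neurod6, Prox1 and Grin2b were negative, and Neurod6 was called lower (log2FC -0.36, adjusted p = 0.00419 in edgeR's test). In whole tissue, fewer cells of a type and less RNA per cell cannot be told apart.

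Kdm1a mRNA stood at 79.5, 81.1 and 79.6 CPM in the 3 controls and at 39.3, 36.9 and 38.4 CPM in the 3 Kdm1a-ifKOs. The groups were far apart (log2FC -1.07, SE 0.056, adjusted p = 6.24e-08 in edgeR's test). The two-sided exact permutation p was 0.1, the lowest value that 3 mice per group can reach. Kdm1a overlaps Luzp1 on the opposite strand and the pseudogene Gm12987 on the same strand, and the strand setting of the counting is not given in the sources used here, so reads in the overlaps cannot be assigned with certainty.

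Of the genes enclosed with Kdm1a by the loops of 10 or more PETs, those tested were Luzp1, Hnrnpr and Zfp46, and their adjusted p lay between 0.147 and 0.473 in edgeR's test. Luzp1, a leucine zipper protein that overlaps the 3′ end of Kdm1a, had 142, 125 and 150 CPM in controls and 129, 131 and 133 CPM in Kdm1a-ifKOs, and the groups overlapped (log2FC -0.08, SE 0.065, adjusted p = 0.473 in edgeR's test). The other genes inside the loop of 74 PETs were nearly silent, with at most 6 counts of 6030445D17Rik and at most 1 count of Tex46 in a library. Hnrnpr, an RNA-binding protein gene inside the loop of 11 PETs, had 72.8, 86.5 and 86.4 CPM in controls and 74.2, 75.1 and 65.2 CPM in Kdm1a-ifKOs (log2FC -0.20, SE 0.078, adjusted p = 0.147 in edgeR's test). It passed the threshold without control replicate 1 (log2FC -0.27, adjusted p = 0.0371 in edgeR's test). Zfp46, a zinc finger gene in the same loop, had 38.2, 37.9 and 39.7 CPM in controls and 37.0, 35.7 and 30.9 CPM in Kdm1a-ifKOs (log2FC -0.16, SE 0.074, adjusted p = 0.207 in edgeR's test). Beyond the right anchor site, the receptor tyrosine kinase gene Ephb2 had 39.8, 33.9 and 32.3 CPM in controls and 36.5, 32.6 and 35.9 CPM in Kdm1a-ifKOs, and the groups overlapped (log2FC -0.014, SE 0.083, adjusted p = 0.943 in edgeR's test).

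Called genes lay further out on both sides, and E2f2, Id3 and C1qb were enclosed with Kdm1a by the loop of 1144 kb, which had 3 PETs. E2f2, a transcription factor of the cell cycle 354 kb from Kdm1a, rose from 1.83, 1.89 and 1.77 CPM in controls to 4.22, 3.81 and 3.44 CPM in Kdm1a-ifKOs (log2FC 1.06, SE 0.18, adjusted p = 0.0024 in edgeR's test). The adjacent Asap3, an Arf GTPase-activating protein gene, overlapped between groups (log2FC 0.27, SE 0.20, adjusted p = 0.431 in edgeR's test). On the other side lay the C1q chains, the recognition subunits of complement that microglia make. C1qb had 45.0, 43.9 and 45.0 CPM in controls and 48.0, 59.0 and 64.1 CPM in Kdm1a-ifKOs (log2FC 0.35, SE 0.092, adjusted p = 0.0381 in edgeR's test). The log2FC was 0.41 for C1qc (adjusted p = 0.0771) and 0.37 for C1qa (adjusted p = 0.201), in the same edgeR test. Both C1qc (log2FC 0.53, adjusted p = 0.0061) and C1qa (log2FC 0.51, adjusted p = 0.0287) passed it without Kdm1a-ifKO replicate 1. With the replicate number as a block C1qc passed it too (adjusted p = 0.0354), and in DESeq2 the adjusted p was 0.00502 for C1qc and 0.0337 for C1qa. The call of C1qb was lost without control replicates 1, 2 or 3 (adjusted p = 0.0845, 0.093 and 0.115 in edgeR's test) and without Kdm1a-ifKO replicates 2 or 3 (adjusted p = 0.0902 and 0.112).

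Of the 628 genes of the interval, 210 had no count in any library and 269 passed the filter, 236 of them protein-coding. Among the 269, 34 (12.6%) were called higher, against 6.04% of all tested genes and 5.94% of the tested genes on the rest of chromosome 4 (46 of 775). Called lower were 2 (0.743%), Kdm1a and Pdik1l, against 2.82% of all tested genes. With a log2FC over 0.5, 22 genes (8.18%) were called higher against 3.15% of all, and with a log2FC over 1, 9 genes (3.35%) against 1.36%. Kdm1a was the gene called lower past -0.5 and past -1 (0.372% of the 269), against 0.28% and 0.0655% of all. The median log2FC of the 269 genes was 0.079 (quartiles -0.023 and 0.26), against -0.0034 (quartiles -0.13 and 0.14) over all tested genes and -0.0041 on the rest of chromosome 4. No test of the interval as a set was made, since it was examined with results of these data known.

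The share of higher calls did not rise steadily toward Kdm1a. Within 1 Mb of its body, 5 of 30 tested genes (16.7%) were called higher, from 1 to 2 Mb 2 of 28 (7.14%), from 2 to 5 Mb 14 of 111 (12.6%) and further out 13 of 98 (13.3%). The median log2FC of these bins was 0.11, 0.091, 0.097 and 0.064. Their median absolute log2FC, which counts changes in either direction, was 0.18, 0.11, 0.13 and 0.14, against 0.13 over all tested genes. By this measure the bin nearest Kdm1a had the largest value. On the side of lower coordinates 19 of 170 genes (11.2%) were called higher, and on the side of higher coordinates 15 of 97 (15.5%). Inside at least 1 loop lay 224 of the 269 genes (83.3%), of which 29 (12.9%) were called higher, and of the 45 genes in no loop 5 (11.1%) were. Among the 105 genes inside a loop of at least 10 PETs, 16 (15.2%) were called higher. In the large loop domain of Kdm1a, 13 of 91 (14.3%) were called higher. Genes that share a loop or a domain are not independent, and none of these differences was tested.

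**Figure D4:**
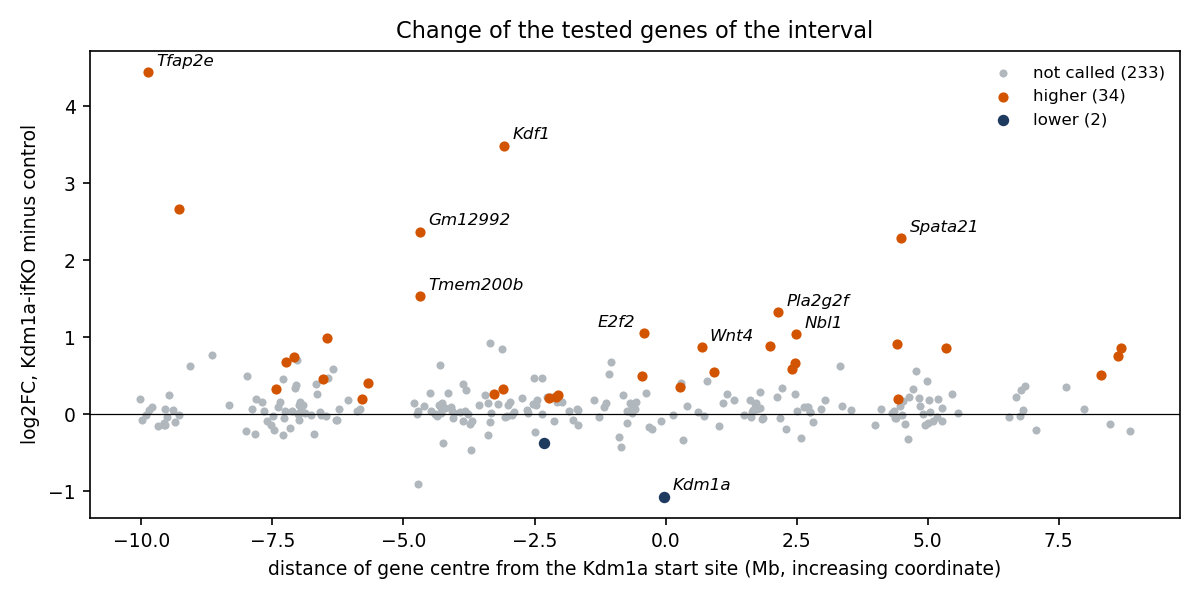
Log2FC (Kdm1a-ifKO minus control) of the 269 tested genes of the interval against the distance of the gene centre from the Kdm1a start site. Orange points are the 34 genes called higher and dark blue points the 2 called lower, from edgeR's test at an adjusted p under 0.05 with 3 mice per group, and the higher calls spread over the whole interval.

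The largest increases were of genes nearly silent in controls. Tfap2e, a transcription factor of the AP-2 family 9814 kb from Kdm1a, had 0.157, 0.0525 and 0.322 CPM in controls and 4.47, 3.15 and 4.31 CPM in Kdm1a-ifKOs (log2FC 4.45, SE 0.36, adjusted p = 3.85e-06 in edgeR's test). It lay in 9 loops, the strongest of 90 PETs. Kdf1, a regulator of keratinocyte differentiation, had 0.105, 0.105 and 0.322 CPM in controls and 1.85, 2.13 and 2.16 CPM in Kdm1a-ifKOs, and it lay in no loop (log2FC 3.49, SE 0.38). Without control replicate 3 the log2FC was 5.16 for Tfap2e and 4.21 for Kdf1. Spata21 had a log2FC of 2.29 (SE 0.53). Its call was lost without Kdm1a-ifKO replicate 1 (log2FC 2.25, adjusted p = 0.0622 in edgeR's test). Gm12992, a processed transcript, had a log2FC of 2.37 (SE 0.20) and overlaps Srsf4 on the opposite strand, so its counts are uncertain. The neighbouring Tmem200b had a log2FC of 1.53 (SE 0.21). Pla2g2f, a secreted phospholipase inside 19 loops, rose from 3.50, 3.68 and 2.79 CPM to 9.67, 7.21 and 8.27 CPM (log2FC 1.33, SE 0.16, adjusted p = 0.000149 in edgeR's test).

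Genes with more transcript in controls also rose. Nbl1, a secreted antagonist of bone morphogenetic proteins, had 74.5, 66.8 and 69.8 CPM in controls and 142, 139 and 155 CPM in Kdm1a-ifKOs (log2FC 1.05, SE 0.060, adjusted p = 1.39e-07 in edgeR's test). It lay in 1 loop, of 3 PETs. Wnt4, inside the loop of 202 PETs, had 14.0, 13.3 and 13.2 CPM in controls and 24.2, 26.2 and 23.6 CPM in Kdm1a-ifKOs (log2FC 0.87, SE 0.080, adjusted p = 1.11e-05 in edgeR's test). Marcksl1, a MARCKS-like protein that binds actin and calmodulin, had a log2FC of 0.75 (SE 0.068) and lay in no loop. Hspg2, the basement membrane proteoglycan perlecan, and Dhrs3, a retinaldehyde reductase, had log2FC values of 0.55 and 0.51 with SEs of 0.078 and 0.090. For Nbl1, Wnt4, Marcksl1, Hspg2 and Dhrs3 the lowest Kdm1a-ifKO library lay above the highest control library. These genes were picked as the largest called increases from 10 CPM in controls, so the gap is no separate evidence. Pdik1l, a kinase gene, fell from 12.6, 12.7 and 13.9 CPM to 10.5, 10.3 and 9.50 CPM (log2FC -0.37, SE 0.097, adjusted p = 0.0321 in edgeR's test), and with each of the 6 libraries left out in turn its adjusted p lay between 0.0519 and 0.118. The call was also lost with the replicate block (adjusted p = 0.0755) and in DESeq2 (adjusted p = 0.0917).

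**Figure D5:**
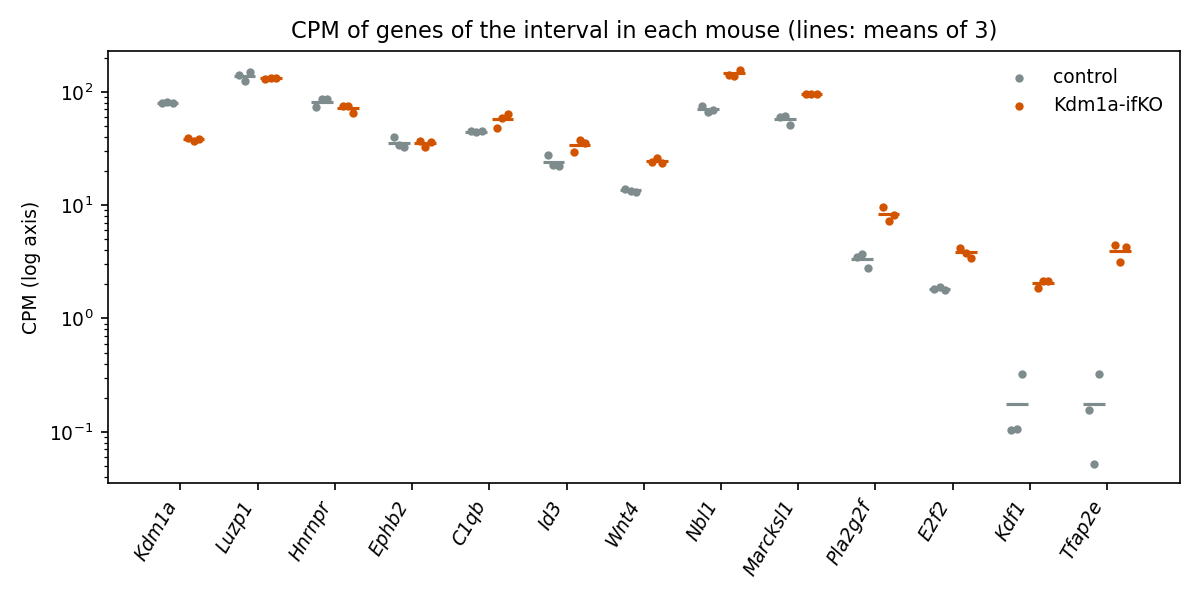
CPM (log axis) of 13 genes of the interval in each of the 3 control mice (grey) and 3 Kdm1a-ifKO mice (orange), with the mean of each group as a line. Kdm1a is lower in Kdm1a-ifKOs, Luzp1, Hnrnpr and Ephb2 overlap between groups, and the genes from C1qb to Tfap2e lie higher in each Kdm1a-ifKO than in each control.

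At the anchors of the 5 strongest loops, most genes did not pass the test. Sdc3, inside the loop of 240 PETs, had 207, 216 and 191 CPM in controls and 230, 236 and 243 CPM in Kdm1a-ifKOs (log2FC 0.21, SE 0.056, adjusted p = 0.0374 in edgeR's test). This call was lost without control replicates 1 or 3 (adjusted p = 0.0654 and 0.0613) and without Kdm1a-ifKO replicates 1, 2 or 3 (adjusted p = 0.0742, 0.08 and 0.174), as it was with the replicate number as a block (adjusted p = 0.0829). Wnt4 was the other anchor gene called higher. Ahdc1 (log2FC 0.12, adjusted p = 0.492), Srrm1 (log2FC -0.030, adjusted p = 0.782), Gm26516 (log2FC 0.073, adjusted p = 0.932) and Cdc42 (log2FC -0.023, adjusted p = 0.811) did not pass edgeR's test. Clic4 (log2FC 0.19, adjusted p = 0.139) passed it only without Kdm1a-ifKO replicate 1 (log2FC 0.27, adjusted p = 0.0331) or without a filter on low counts (adjusted p = 0.0291).

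Lists of related genes of the interval are given beside the shares of all tested genes that were called higher (6.04%) and lower (2.82%), and of the interval's genes called higher (12.6%), and none was tested as a list. The lists were drawn up with earlier results of these data known, so their counts of calls are description alone. Of 15 epithelial and developmental genes 9 were tested and 5 were called higher, namely Wnt4, Hspg2, E2f2, Id3 and Col16a1, and their median log2FC was 0.50. Id3, an inhibitor of basic helix-loop-helix factors, had 27.8, 22.6 and 22.1 CPM in controls and 29.6, 37.7 and 35.2 CPM in Kdm1a-ifKOs (log2FC 0.50, SE 0.11, adjusted p = 0.0197 in edgeR's test). Its call was lost without control replicates 2 or 3 (adjusted p = 0.0647 and 0.0613), without Kdm1a-ifKO replicate 3 (adjusted p = 0.0869) and with the replicate block (adjusted p = 0.0644). Col16a1, a fibril-associated collagen, had a log2FC of 0.45 (SE 0.067). Of 6 group 2 secreted phospholipases 3 were tested, with Pla2g2f called higher and a median of 0.35. Of 12 tested genes of neuronal signalling, 1 was called higher, the serotonin receptor Htr6 (log2FC 0.67, SE 0.12, adjusted p = 0.00309 in edgeR's test), and the median was 0.049.

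Of 16 chromatin and RNA regulators, 1 was called higher, the BTB zinc finger gene Zbtb8a (log2FC 0.68, SE 0.18, adjusted p = 0.0352 in edgeR's test), and the median was 0.047. The call of Zbtb8a was lost without control replicates 2 or 3 (adjusted p = 0.0859 and 0.104), without Kdm1a-ifKO replicates 1, 2 or 3 (adjusted p = 0.0961, 0.0834 and 0.0688) and in DESeq2 (adjusted p = 0.0813). The 3 Eph receptors had log2FC values between -0.33 and 0.33 (smallest adjusted p = 0.361 in edgeR's test), and Padi2, the tested member of 5 peptidyl arginine deiminases, a log2FC of 0.013 (adjusted p = 0.952). The 3 tested zinc finger genes of 11 lay between -0.16 and 0.47 (smallest adjusted p = 0.0865). The other 8 did not pass the filter, and zinc finger genes with near-identical copies can share reads.

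The C1q genes and Laptm5, which encodes a lysosomal protein of blood-derived cells and microglia (log2FC 0.41, SE 0.073, adjusted p = 0.00305 in edgeR's test), are 4 of the 14 microglia markers examined. All 14 had a positive log2FC (median 0.33) and 5 were called higher, against 6.04% of all tested genes. The summed level of the markers was 547 to 589 CPM in controls and 623 to 807 CPM in Kdm1a-ifKOs. The part of microglia in the calls of these genes was not tested. Among other markers, to be read against the same 6.04% for higher calls and 2.82% for lower calls, 2 of 7 of astrocytes were called higher (median 0.10), 1 of 6 of excitatory neurons was called lower (Neurod6, median -0.062), 1 of 6 of interneurons was called lower (Vip, median -0.13) and 1 of 5 of the choroid plexus was called higher (Kl, log2FC 1.28, median 0.12). The choroid plexus markers Ttr (log2FC -1.49, adjusted p = 0.337) and Clic6 (log2FC -0.85, adjusted p = 0.202) had values of the opposite sign to Kl and did not pass edgeR's test. The medians were 0.018 for oligodendrocytes (smallest adjusted p = 0.352 in edgeR's test) and 0.080 for endothelial cells (smallest adjusted p = 0.229).

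Genes of the loop machinery, which lie elsewhere in the genome, are given since no loops of Kdm1a-ifKO neurons were analysed here. Ctcf had 81.8, 85.7 and 84.2 CPM in controls and 86.3, 76.9 and 86.2 CPM in Kdm1a-ifKOs (log2FC -0.014, SE 0.059, adjusted p = 0.916 in edgeR's test). Of the 11 tested genes of CTCF, cohesin and its regulators, 1 was called lower, against 2.82% of all tested genes, namely the cohesin regulator Pds5b (log2FC -0.36, SE 0.080, adjusted p = 0.0199 in edgeR's test). Pds5b stood at 115, 121 and 147 CPM in controls and at 99.8, 99.3 and 100.0 CPM in Kdm1a-ifKOs. All 11 had a log2FC below 0, with a median of -0.080. Control replicate 3, which stood apart from the other libraries, was the highest control for most of them, but not for Ctcf or Smc1a. For example, the controls had 47.8, 49.1 and 65.4 CPM of Nipbl and 56.1, 62.3 and 73.5 CPM of Stag2. The shared sign therefore leans in part on that library.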

How the data were processed

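The authors trimmed single-end poly-A reads with cutadapt 1.18, aligned them to mm10 (GRCm38) with HISAT2 2.1.0, kept nuclear alignments of mapping quality over 30 and used HTSeq 0.11.1 to count reads by gene (versions per the submitters' processing notes). The deposited values are raw read counts without normalization. The authors processed the ChIA-PET library with ChIA-PIPE, and the deposited loops carry counts of PETs, at least 3 each, with a CTCF peak of coverage over 50 at both anchors, so weaker contacts and the depth before loop calling are not known from them.

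Counts of the 6 RNA libraries were analysed under R 4.3.3 by the quasi-likelihood test of edgeR 4.0.16, after filterByExpr and TMM and with robust dispersions, genotype as the only factor, whereas the authors used DESeq2. Standard errors are the absolute log2FC divided by the square root of F. The fits and the motif search were tested on simulated data. Each library came from 1 mouse, and replicates differed by more than counting error (chi-square over its degrees of freedom from 2.95 to 7.59). Same-numbered replicates did not deviate together (correlations -0.032, -0.089 and -0.14).

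Gene bodies came from GENCODE M21 on the chromosomes (GRCm38), which held 48349 (99.1%) of the 48795 counted genes, and sequences from the RefSeq GRCm38 genome. Loops were handled in Python 3.11.15, numpy 2.4.6, pandas 2.3.3 and scipy 1.17.1. Spans run between anchor midpoints, and overlapping anchors were merged into sites.

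The members, the interval, the gene lists and the tests were chosen with earlier results of these data known. Named genes are Kdm1a, genes that overlap it and the 4 nearest tested genes on each side, interval genes called with an absolute log2FC over 1, the 5 largest decreases (from 1 CPM in controls) and increases (from 10 CPM), genes within 10 kb of an anchor of the 5 strongest loops, and called members of the lists. Genes enclosed by the loops over Kdm1a, the most connected anchor and the ends of the lists are named beside them. A few genes and a motif sequence that these rules select are not reported here. Alternatives were DESeq2 1.42.0, its size factors in edgeR, other filters, a replicate block, each library left out, other memberships and thresholds, higher PET minimums, other spans and exact motif matches.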

Additional observations from a re-analysis of the deposited data

How the results depend on the processing

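With each library left out in turn, between 23 and 35 genes of the interval were called higher and between 1 and 2 lower, and the log2FC of Kdm1a stayed between -1.09 and -1.05. The count of 2 lower calls became 1 without control replicate 2, control replicate 3, Kdm1a-ifKO replicate 1 or Kdm1a-ifKO replicate 3. It stayed at 2 without control replicate 1 or Kdm1a-ifKO replicate 2, but Pdik1l was not among these calls (adjusted p = 0.0519 and 0.0527 in edgeR's test). With control replicate 3 and Kdm1a-ifKO replicate 2 both left out, an alternative chosen after seeing the data, 26 were called higher and 2 lower. Pdik1l was not called there either (adjusted p = 0.0993 in edgeR's test). The sources used here do not say whether the replicate numbers pair the mice. With the replicate number as a block 29 genes were called higher and 1 lower. DESeq2 called 33 higher and 1 lower, and edgeR without a filter on low counts 42 and 7. Leaving out Kdm1a and Luzp1 left 34 and 1, gene bodies lying wholly within 5 Mb of Kdm1a gave 21 and 2, and wholly within 2 Mb 5 and 1 (the nearest edge, used for the distance bins, puts the called genes Selenon and Vwa5b1, named after their values were seen, inside 2 Mb too), a log2FC past 0.5 gave 22 and 1, and past 1 gave 9 and 1. Loops of at least 5 PETs numbered 367 (median 9 PETs, 43 domains, 3 over Kdm1a), and loops of at least 10 PETs 166 (median 19 PETs, median span 85.1 kb, 53 domains, 3 over Kdm1a, 68.5% of the oriented loops convergent). Exact motif matches were at 25.3% of the sites, against 2.55% of the shifted regions. No called gene of the interval picked by the naming rules changed direction under any alternative run. Selenon, Vwa5b1 and called genes named from outside the interval, such as Pds5b, were not examined for this. The depth of the ChIA-PET library limits what a missing loop can show, and the loops have no replicate.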
